A study of Mus musculus with 4 samples.

Results

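The genes described here are 8 targets of the transcription factor p53: Cdkn1a, Ccng1, Mdm2, Bax, Phlda3, Trp53inp1, Zmat3 and Sesn2. They were chosen by name, and 8 of 8 were found among the 13518 genes of the deposited table. They were read across the 4 arms of a tumour treatment study and across T cells gated by Cd8a and Cd8b1, Cd4, Foxp3 and Mki67. Trp53, the gene of p53 itself, was read beside them.

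Single-cell RNA was measured in tumours that grew after orthotopic implantation of MC38 cells, a mouse colon carcinoma line, into C57BL/6 mice. Each arm was 1 droplet library made from 5 pooled tumours, taken 2 weeks after treatment began. The arms were vehicle, anti-PD-1 (an antibody against the T cell inhibitory receptor PD-1, given 3 times a week and 5 times in total), ATT-I (Atractylenolide I, a plant sesquiterpene lactone, 50 mg/kg daily) and the combination of both. For the first arm the protocol speaks of vehicle, while its own entry says that it got no treatment. All 4 arms share the strain, the implanted line and the time of harvest, and because animals were pooled, no value below carries a spread between animals.

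In unstressed cells p53 protein is kept low by Mdm2, a ubiquitin ligase that p53 itself induces. DNA damage and other stresses stabilise p53, which then raises genes that stop the cell cycle (Cdkn1a, encoding the cyclin-dependent kinase inhibitor p21), favour cell death (Bax, a pore-forming protein of the mitochondrial outer membrane, and Phlda3, an inhibitor of Akt), support autophagy and further p53 activity (Trp53inp1), limit mTOR signalling (Sesn2, also a target of the stress factor ATF4), bind RNA (Zmat3) or act back on p53 (Ccng1, cyclin G1, and Mdm2). Several of these genes, Cdkn1a among them, are also transcribed without p53, for example when T cells are activated.

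The p53 response element is a pair of 10-base elements. With the pair at most 1 base apart and at most 2 mismatches allowed outside the fixed core bases, on either strand, it was found in the 300-base windows around the annotated start of 3 of the 6 members for which RefSeq promoter windows (GRCm38.p6) were at hand. It lies in 0.682% of all 32851 windows. A single exact element was found in the windows of 4 of these members (Cdkn1a, Ccng1, Bax and Mdm2) and in 8.36% of all windows. The 3 windows with a full pair are shown. Whether having a pair goes with the results below was not tested. Each run gives the 250 bases before the start, 5′ to 3′ on the gene's strand, with the pair in capitals. For Cdkn1a it is chr17:29090729-29090978 on the plus strand (1 mismatch, first base of the pair 51 bases before the start), for Ccng1 chr11:40755287-40755536 on the minus strand (1 mismatch, 195 bases before the start), and for Bax chr7:45466899-45467148 on the minus strand (2 mismatches, 201 bases before the start).
Cdkn1a: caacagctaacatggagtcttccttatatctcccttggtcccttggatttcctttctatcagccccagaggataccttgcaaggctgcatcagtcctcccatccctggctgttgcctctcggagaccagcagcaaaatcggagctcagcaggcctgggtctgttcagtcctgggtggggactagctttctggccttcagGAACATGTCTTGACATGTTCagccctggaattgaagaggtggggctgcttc
Ccng1: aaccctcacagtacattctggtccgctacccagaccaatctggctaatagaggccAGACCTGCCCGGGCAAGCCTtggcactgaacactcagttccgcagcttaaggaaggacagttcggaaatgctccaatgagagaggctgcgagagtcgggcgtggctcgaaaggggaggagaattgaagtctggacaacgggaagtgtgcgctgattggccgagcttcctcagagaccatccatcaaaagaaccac
Bax: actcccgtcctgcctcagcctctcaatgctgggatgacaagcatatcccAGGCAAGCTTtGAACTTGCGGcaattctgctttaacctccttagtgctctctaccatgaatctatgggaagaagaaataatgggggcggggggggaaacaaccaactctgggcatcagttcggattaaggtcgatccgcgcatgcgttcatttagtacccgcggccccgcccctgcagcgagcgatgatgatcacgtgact
A match describes these letters only, and the limits of the search were chosen after the windows had been seen. No pair or exact element was found in the windows of Phlda3, Sesn2 or the second annotated start of Cdkn1a.

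In the gene annotation (GENCODE vM21, GRCm38), the members lie at chr17:29090976-29100727 on the plus strand (Cdkn1a), chr11:40748552-40755311 on the minus strand (Ccng1), chr10:117688875-117710758 on the minus strand (Mdm2), chr7:45461697-45466898 on the minus strand (Bax), chr1:135766119-135769136 on the plus strand (Phlda3), chr4:11156431-11174379 on the plus strand (Trp53inp1), chr3:32334792-32366014 on the minus strand (Zmat3) and chr4:132492032-132510501 on the minus strand (Sesn2). Bax overlaps Gm45808 and Sesn2 overlaps Gm12981 on the same strand, so their reads may not be fully told apart. Cdkn1a overlaps AC167363.2 on the other strand.

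The libraries were very unequal, with 155 cells from vehicle tumours, 12562 after anti-PD-1, 297 after ATT-I and 199 after both. The median cell held 16129, 7148, 6828 and 23927 UMIs (unique molecular identifiers, 1 per captured RNA molecule), and the libraries summed to 3099824, 108628721, 2878355 and 5232593 UMIs in that order. Levels are UMIs of a gene per 10000 UMIs, summed over the cells of a class, with exact Poisson 95% intervals that cover counting error only. A cell was CD8-gated when its Cd8a and Cd8b1 UMIs outnumbered its Cd4 UMIs and it had no Foxp3 UMI, CD4 conventional in the reverse case, and Foxp3-gated when it had a Foxp3 UMI and at least as many Cd4 as Cd8a and Cd8b1 UMIs. The gates took 10654 T cells after anti-PD-1 and 129, 235 and 188 T cells from the vehicle, ATT-I and combination libraries. The 5 T cell markers (Cd3e, Cd3d, Cd3g, Trac and Trbc2) summed to 39.2, 64.0, 48.1 and 42.5 UMIs per 10000 in these cells, in the order used for the medians, and none was at 0. At least 1 Mki67 UMI, the mark used here for dividing cells, was found in 70.5% of gated T cells in vehicle (exact Clopper-Pearson 95% interval 61.9 to 78.2), 33.2% in anti-PD-1 (32.3 to 34.1), 31.9% in ATT-I (26.0 to 38.3) and 76.6% in the combination (69.9 to 82.4). This mark depends on depth, and the 2 libraries with the higher shares were also the deeper ones.

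In all gated T cells together, Cdkn1a, the cell cycle inhibitor, stood at 1.07 UMIs per 10000 in vehicle (95% interval 0.947 to 1.21), 0.320 in anti-PD-1 (0.309 to 0.331), 0.350 in ATT-I (0.279 to 0.434) and 0.810 in the combination (0.734 to 0.893). Ccng1, which recruits a phosphatase to Mdm2, stood at 1.34 (1.20 to 1.5), 0.533 (0.518 to 0.548), 0.426 (0.347 to 0.518) and 0.731 (0.658 to 0.810) in the same order. Both genes were thus highest in vehicle and next highest in the combination, and the intervals of those libraries did not overlap each other or those of the single treatments. Mdm2 stood at 0.577 (0.485 to 0.681), 0.367 (0.355 to 0.380), 0.355 (0.283 to 0.439) and 0.5 (0.441 to 0.566), with overlapping intervals between vehicle and combination and between the single treatments.

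Among the genes tied to cell death, Bax stood at 2.28 in vehicle (2.09 to 2.48), 2.39 in anti-PD-1 (2.36 to 2.42), 1.66 in ATT-I (1.5 to 1.84) and 1.63 in the combination (1.52 to 1.74), a different order from that of Cdkn1a. Phlda3 was scarce, at 0.170 (0.122 to 0.231), 0.0755 (0.0700 to 0.0813), 0.0718 (0.0418 to 0.115) and 0.0834 (0.0601 to 0.113). Only its vehicle interval lay apart from the other 3. Trp53inp1 stood at 0.647 (0.550 to 0.757), 0.217 (0.208 to 0.227), 0.338 (0.268 to 0.420) and 0.419 (0.364 to 0.480), lowest in anti-PD-1. Zmat3 stood at 0.191 (0.140 to 0.255), 0.0623 (0.0573 to 0.0675), 0.114 (0.0751 to 0.166) and 0.0914 (0.0669 to 0.122). Sesn2 rested on 15, 217, 13 and 26 UMIs, at 0.0622, 0.0231, 0.0549 and 0.0516 UMIs per 10000, and passed no filter on low values used below. Trp53 itself stood at 1.27, 1.13, 1.22 and 1.27.

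Much of the Cdkn1a signal of the small libraries sat in a few cells. In vehicle, 1 CD8-gated cell of 40142 UMIs held 66 of the 259 Cdkn1a UMIs of gated T cells (25.5%), and 1 CD4 conventional cell held 44 more. The first of these cells also held 15 Mdm2, 16 Ccng1 and 5 Phlda3 UMIs. In the combination, 1 CD8-gated cell of 33840 UMIs and 6175 detected genes held 46 Cdkn1a, 38 Ccng1, 21 Mdm2, 14 Trp53inp1 and 9 Sesn2 UMIs, and 21 of the library's 42 Phlda3 UMIs (50.0%). In vehicle and the combination the cell that led Cdkn1a thus also held UMIs of several other members. In ATT-I the leading cell (11 Cdkn1a UMIs, 21231 UMIs in all) was not the one richest in the members, which held 3 Cdkn1a UMIs. Leaving out the single highest cell for Cdkn1a took its level to 0.814 in vehicle, 0.317 with anti-PD-1, 0.307 with ATT-I and 0.724 with both agents. The Poisson intervals treat UMIs of 1 cell as independent and are therefore too narrow where so few cells carry the signal.

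**Figure D1:**
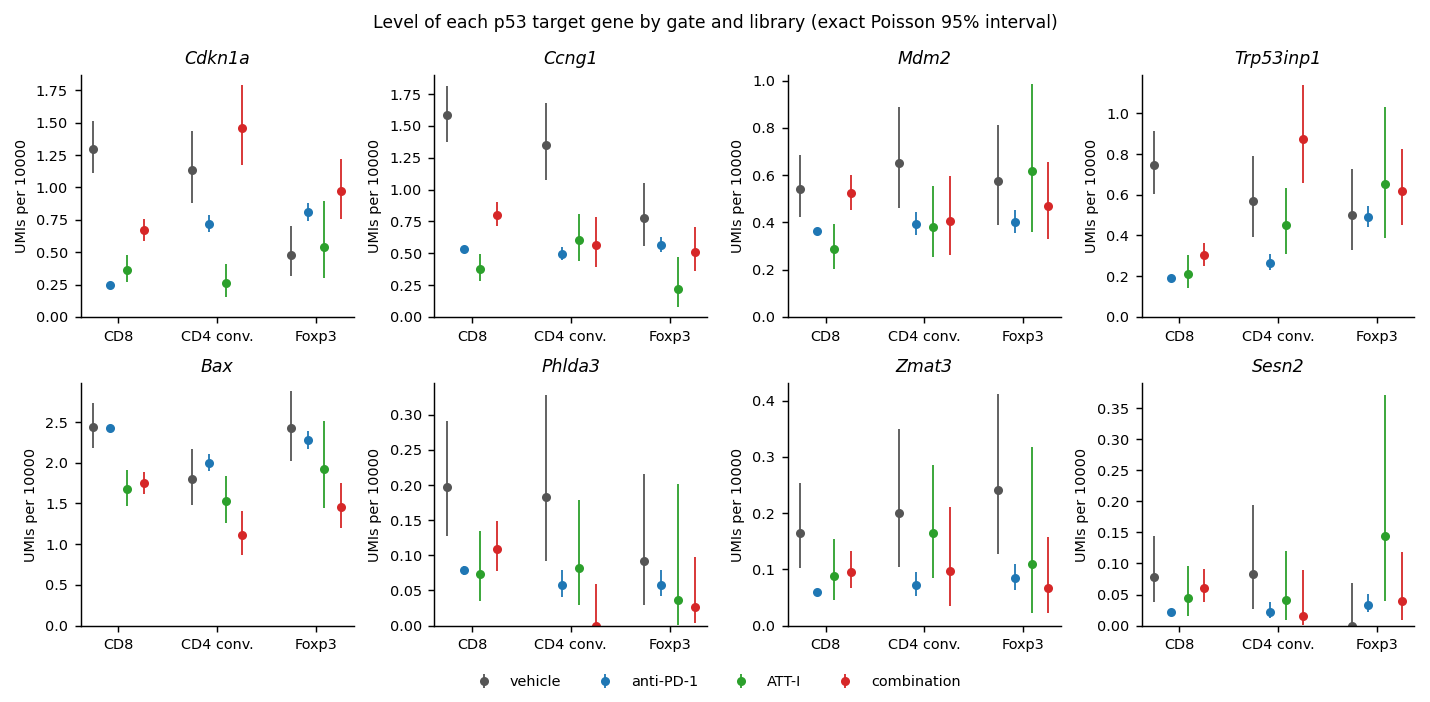
Level of each p53 target in UMIs per 10000 (vertical axis, from 0) in the CD8, CD4 conventional and Foxp3 gates (horizontal axis) of the 4 libraries, with points for the summed level and bars for the exact Poisson 95% interval. In the CD8 gate Cdkn1a ran from 0.245 in anti-PD-1 to 1.3 in vehicle, while in the CD4 conventional gate the combination was highest at 1.46.

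By gate, Cdkn1a in CD8-gated cells stood at 1.3 in vehicle (1.11 to 1.51), 0.245 in anti-PD-1 (0.234 to 0.256), 0.360 in ATT-I (0.266 to 0.476) and 0.669 in the combination (0.588 to 0.758). In CD4 conventional cells it stood at 1.13 (0.881 to 1.44), 0.722 (0.658 to 0.789), 0.259 (0.156 to 0.405) and 1.46 (1.17 to 1.79). In Foxp3-gated cells it stood at 0.481 (0.314 to 0.705), 0.808 (0.742 to 0.878), 0.544 (0.304 to 0.897) and 0.970 (0.759 to 1.22). The order of the arms therefore changed with the gate: vehicle was highest among CD8-gated cells and lowest among Foxp3-gated cells, where its interval met that of ATT-I but not those of anti-PD-1 and the combination. Single cells weighed heavily here, with 44 of 68 Cdkn1a UMIs in vehicle CD4 conventional cells from 1 cell (64.7%), 15 of 26 in vehicle Foxp3-gated cells (57.7%), 11 of 15 in ATT-I Foxp3-gated cells (73.3%) and 32 of 90 in combination CD4 conventional cells (35.6%). Without the highest cell of each library, the Foxp3-gated cells stood at 0.221 in vehicle, 0.782 with anti-PD-1, 0.157 with ATT-I and 0.787 with both agents, so that ATT-I rather than vehicle was lowest. Phlda3 was not detected in combination CD4 conventional cells, which allows a level of up to 0.0597 UMIs per 10000. In cells outside the gates Cdkn1a stood at 0.697, 0.461, 0.118 and 0.860.

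The first tested comparison asked whether dividing T cells carried more of these transcripts. Cells with and without an Mki67 UMI were compared within each library by limma with the library as a block, on log2 of UMIs per 10000 plus 0.05, over the 7502 genes with a mean of at least 0.1 UMIs per 10000, with Benjamini-Hochberg adjustment and a threshold of 0.05. Cdkn1a, Ccng1 and Bax rose in the Mki67 cells, and no member fell. These are 3 of the 6 members that passed the filter, against 11.3% of all genes tested that rose (849 genes) and 6.19% that fell (464 genes). The libraries differ in treatment, so the test asks whether the difference held across arms.

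Cdkn1a stood at 1.22 UMIs per 10000 in Mki67 cells and 0.156 in the others in vehicle, 0.410 and 0.242 in anti-PD-1, 0.547 and 0.119 in ATT-I, and 0.896 and 0.168 in the combination. All 4 libraries moved the same way, and no Mki67 value was as low as any value without Mki67. The log2 difference was 1.80 (SE 0.27), a 3.49-fold difference, with an adjusted p of 0.0012 by limma. Within libraries it ran from 0.66 in anti-PD-1 to 2.62 in vehicle. The SE and the p-value rest in part on the spread pooled over genes, not on these libraries alone. The 3 small libraries without Mki67 rest on 5, 13 and 10 Cdkn1a UMIs.

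Ccng1 stood at 1.44 against 0.717 in vehicle, 0.627 against 0.451 in anti-PD-1, 0.515 against 0.322 in ATT-I and 0.779 against 0.370 in the combination, higher with Mki67 in 4 of 4 libraries although the vehicle cells without Mki67 lay above the Mki67 cells of 2 other libraries. Its log2 difference was 0.74 (SE 0.14, adjusted p = 0.0055). Bax stood at 2.39 against 1.53, 2.62 against 2.18, 2.0 against 1.27 and 1.65 against 1.43 in the same order, a log2 difference of 0.43 (SE 0.11, adjusted p = 0.026). The Bax call was lost without the vehicle library (adjusted p = 0.097) or without ATT-I (0.11).

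**Figure D2:**
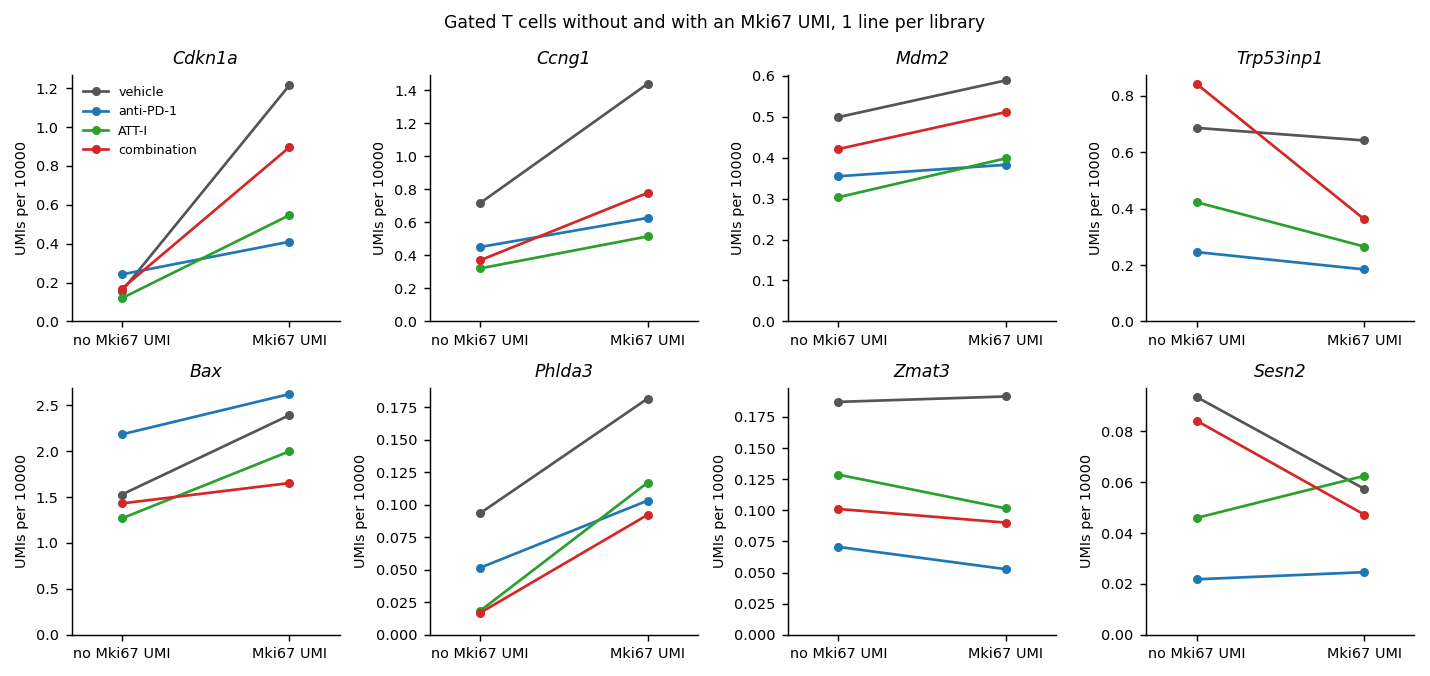
Level of each p53 target in UMIs per 10000 (vertical axis, from 0) in gated T cells without and with an Mki67 UMI (horizontal axis), 1 line per library and no error bars. Lines for Cdkn1a, Ccng1, Bax, Mdm2 and Phlda3 slope up in all 4 libraries, and those for Trp53inp1 slope down in all 4.

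The other members did not pass. Mdm2 had a log2 difference of 0.23 (SE 0.13, adjusted p = 0.28), Trp53inp1 of -0.53 (SE 0.18, adjusted p = 0.070, lower with Mki67 in 4 of 4 libraries) and Zmat3 of -0.14 (SE 0.21, adjusted p = 0.69). Phlda3 fell below the filter. Its level was higher with Mki67 in each library, at 0.182 against 0.0935 in vehicle, 0.103 against 0.0515 with anti-PD-1, 0.117 against 0.0184 with ATT-I and 0.0923 against 0.0168 with both agents, although 3 of these 4 libraries held 3 or fewer Phlda3 UMIs without Mki67. Trp53 showed a log2 difference of 0.23 (SE 0.14, adjusted p = 0.29).

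Depth moved with this comparison. Mki67 cells held a median of 21590 UMIs in vehicle, 10939 with anti-PD-1, 16503 with ATT-I and 27929 with both agents, against 7493, 6453, 5577 and 12743.5 for the others. Among cells of 8000 to 32000 UMIs, Cdkn1a differed by 1.63 (adjusted p = 0.014), and Ccng1 (0.70, adjusted p = 0.052) and Bax (0.30, adjusted p = 0.25) did not pass. With every cell thinned to 2000 UMIs, where the Mki67 call itself is made on the thinned UMIs, no member passed, with Cdkn1a at 1.0 (adjusted p = 0.24), Ccng1 at 1.04 (0.13) and Bax at 0.60 (0.41). Leaving out the cell of each library richest in the 8 members left Cdkn1a at 1.66, Ccng1 at 0.66 and Bax at 0.40, all 3 past the threshold. The richest anti-PD-1 cell lay outside the gates, so the gated cells of that library were unchanged.

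Depth could also be followed within the anti-PD-1 library alone, whose gated T cells fell into 2357 of under 5000 UMIs, 5246 of 5000 to 10000, 2579 of 10000 to 20000 and 472 of 20000 or more. Over these bins Cdkn1a stood at 0.282, 0.248, 0.351 and 0.482 UMIs per 10000, and Ccng1 at 0.445, 0.472, 0.572 and 0.676. Trp53inp1 ran the other way, at 0.465, 0.246, 0.160 and 0.105. With cells of 10000 to 20000 UMIs only, Cdkn1a stood at 0.425 with Mki67 (0.399 to 0.454) and 0.228 without (0.203 to 0.256), and Trp53inp1 at 0.166 and 0.150. So the Cdkn1a gap between Mki67 classes was present within that depth bin, and it was smaller at 5000 to 10000 UMIs (0.293 and 0.233 with separate intervals), whereas Trp53inp1 followed depth in both classes. In cells of under 5000 UMIs, Cdkn1a stood at 0.327 (0.237 to 0.438) with Mki67 and 0.274 (0.238 to 0.313) without, and in those of 20000 or more at 0.488 (0.447 to 0.531) and 0.422 (0.303 to 0.572). The intervals were thus separate in both middle bins and overlapped in the lowest and the highest.

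**Figure D3:**
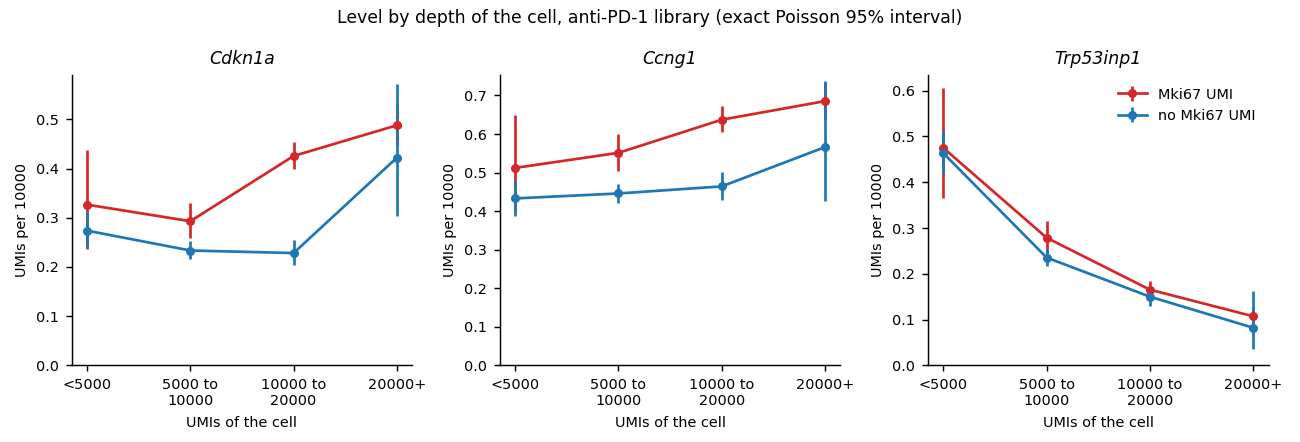
Level of Cdkn1a, Ccng1 and Trp53inp1 in UMIs per 10000 (vertical axes, from 0) against the total UMIs of the cell in 4 bins (horizontal axes) for gated T cells of the anti-PD-1 library with and without an Mki67 UMI, with exact Poisson 95% intervals as bars. Cdkn1a separated the classes most clearly at 10000 to 20000 UMIs (0.425 and 0.228), and Trp53inp1 declined with depth in both classes.

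The gates differed as well. In anti-PD-1, Cdkn1a was 1.03 higher on the log2 scale with Mki67 among CD8-gated cells (95% interval 0.90 to 1.16), 0.21 among CD4 conventional cells (-0.06 to 0.47) and 0.42 among Foxp3-gated cells (0.18 to 0.67). These are counting intervals within 1 library, and the difference between gates was not tested over libraries. In the vehicle CD4 conventional cells the ratio was 2.99 (1.57 to 4.91), where 1 cell held 44 of the 68 Cdkn1a UMIs of the gate.

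Other p53-linked genes were read from lists, whose genes were picked with earlier results of these data known. The list of p53 and its regulators held Trp53 too. Of its 12 genes past the filter, 2 rose with Mki67 and none fell: Cdkn2a (log2 difference 1.66), whose Arf product inhibits Mdm2, and the checkpoint kinase gene Chek1 (1.15). Of 7 other cell death targets only Rps27l rose (1.0). Of 6 other arrest targets 1 rose (Ccng2) and 2 fell, Btg2 and the kinase gene Plk2 (-0.97). Of 6 repair and nucleotide targets Pcna, the DNA polymerase clamp, rose (1.27) and Rrm2b, a ribonucleotide reductase subunit, fell (-0.71). None of 5 metabolism and redox targets passed, and of 6 ATF4 stress genes only Psat1, an enzyme of serine synthesis, rose (1.46). Of 10 early T cell receptor genes none passed. Of 12 genes known to respond to tissue dissociation 9 fell, among them Zfp36 (-1.07), Junb (-0.93) and Dusp1 (-0.86), and Hsp90aa1 rose. Their part in the member results was not tested. Outside the lists, the mitotic genes Cenpf (4.98), Birc5 (4.93) and Ube2c (4.79) rose the most, and Slfn5 (-1.99), Furin (-1.91) and Tcp11l2 (-1.76) fell the most.

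CD8-gated and CD4 conventional cells were compared in the same way over 7519 genes. Bax rose in CD8-gated cells, 1 of 6 members, against 8.50% of all genes that rose and 13.0% that fell, a share close to the background. Bax stood at 2.44 UMIs per 10000 in CD8-gated and 1.80 in CD4 conventional cells in vehicle, 2.43 and 2.0 with anti-PD-1, 1.68 and 1.53 with ATT-I, and 1.75 and 1.12 with both agents. It was higher in the CD8 gate in 4 of 4 libraries, by 0.36 on the log2 scale (SE 0.11, adjusted p = 0.035). The call was lost without vehicle (adjusted p = 0.11), without anti-PD-1 (0.060) and without the combination (0.15). Trp53 also rose, by 0.60 (SE 0.15, adjusted p = 0.016), from 0.934 to 1.51 in vehicle, 1.04 to 1.16 with anti-PD-1, 1.02 to 1.43 with ATT-I and 0.615 to 1.42 with both agents. Its call was lost without vehicle (adjusted p = 0.056) or the combination (0.086).

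Cdkn1a did not pass in this comparison (log2 difference -0.46, SE 0.26, adjusted p = 0.23), and the libraries went different ways. Its log2 ratio of CD8-gated to CD4 conventional cells was -1.56 in anti-PD-1 (95% interval -1.70 to -1.41), -1.12 (-1.48 to -0.76) in the combination, 0.20 (-0.22 to 0.63) in vehicle and 0.47 (-0.32 to 1.32) in ATT-I. Without the richest vehicle cell the vehicle levels were 0.805 in the CD8 gate and 1.13 in the CD4 gate, and without the highest cell of each gate they were 0.805 and 0.418. The vehicle direction therefore turned with which of these cells were left out. Without the ATT-I library Cdkn1a passed, at -0.76 (adjusted p = 0.0499). Both libraries that received anti-PD-1 showed the lower CD8 value, but with 1 library per arm the dependence on treatment could not be tested. Trp53inp1 had a log2 difference of -0.59 (SE 0.24, adjusted p = 0.10), lower in the CD8 gate in 3 of 4 libraries. Without vehicle it passed, at -0.91 (adjusted p = 0.013). Mdm2, Ccng1 and Zmat3 differed by -0.09, 0.04 and -0.26 and did not pass.

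Among the listed p53 genes, Cdkn2a (1.67) and the phosphatase gene Ptp4a3 (1.03) rose in CD8-gated cells, and the kinase genes Plk2 (-2.18) and Plk3 (-1.52) fell. In the list of p53 and its regulators 3 of 12 genes rose, Trp53 itself among them, and 1 fell. In the other lists 1 of 6 arrest targets rose and 3 fell, 1 of 7 death targets rose and 1 fell, 1 of 5 metabolism targets fell and 1 of 6 repair targets rose. Of the 10 early receptor genes, Irf8 (1.92), Nr4a2 (1.58) and Myc (1.24) rose and 3 fell, including Egr2 (-1.73). Of 12 dissociation genes 9 fell, including Dusp1 (-1.25) and Junb (-1.14), and of 5 ATF4 genes 1 rose. Outside the lists Prf1 (4.61), Tcrg-C2 (3.59) and Trgv2 (3.56) led the CD8 gate, and Penk (-4.77), Maf (-3.99) and Il1r2 (-3.91) the CD4 gate. CD8-gated cells were the deeper ones in each library, for example 23901 against 7673 median UMIs in vehicle. The levels of Bax and Trp53 rose with depth over the bins of the anti-PD-1 library given above. Bax was also past the threshold among cells of 8000 to 32000 UMIs (0.47, adjusted p = 0.047).

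Foxp3-gated against CD4 conventional cells gave no member past limma's threshold among the 6 that passed the filter, against 3.44% of 7476 genes that rose and 5.11% that fell. At an unadjusted p under 0.05 the count was 2 of 6 members and 1646 of all genes. Bax differed by 0.32 (SE 0.13, adjusted p = 0.16) and was higher with Foxp3 in 4 of 4 libraries, at 2.42 against 1.80 in vehicle, 2.28 against 2.0 with anti-PD-1, 1.92 against 1.53 with ATT-I and 1.46 against 1.12 with both agents. Ccng1 differed by -0.50 (SE 0.22, adjusted p = 0.20). Cdkn1a had no common direction, with log2 ratios of -1.24 in vehicle (95% interval -1.95 to -0.57), 0.16 in anti-PD-1 (-0.02 to 0.34), 1.07 in ATT-I (-0.01 to 2.12) and -0.59 in the combination (-1.05 to -0.12). Of the other p53 targets, Rps27l and Gpx1 rose in the Foxp3 gate, and Plk2 (-2.96), Btg2 (-1.77), Plk3 and Sesn3 fell, as did the regulator Mdm4. In the list of p53 and its regulators 1 of 11 genes fell. In the others 3 of 6 arrest targets fell, 1 of 7 death targets rose, 1 of 5 metabolism targets rose and 1 fell, and none of 6 repair targets passed. Of 6 ATF4 genes 2 rose, Psat1 (1.22) and Cebpb (0.70). Of 10 early receptor genes Tnfrsf9 (1.59), Irf8 (1.22) and Myc (0.97) rose and Egr2 (-1.52) and Egr1 (-1.48) fell, and of 12 dissociation genes 1 rose and 4 fell, Fosb (-1.23) among them. Outside the lists Klrg1 (3.12), Rapsn (3.03) and Pcsk1 (2.76) rose the most, and Csf2 (-4.87), Gzmc (-4.45) and Ccl1 (-4.14) fell the most.

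Whether the targets were found in the same cells was asked next. Each gated T cell was thinned to 2000 UMIs, split by whether a Cdkn1a UMI was among them, and the other genes were read from all its UMIs. Only anti-PD-1 (477 cells with and 10137 without) and the combination (21 and 167) had at least 20 cells on both sides, so limma rested on 2 libraries, with the spread pooled over genes. Of the 6 members that passed the filter, Phlda3 and Zmat3 did so only through the cells with Cdkn1a, so they had to lie higher there and are given as a description. Of the other 4, Ccng1, Trp53inp1 and Mdm2 rose with Cdkn1a, against 3.27% of 7251 genes that rose and 0.524% that fell. Bax (0.37, SE 0.14, adjusted p = 0.12) did not pass, nor did Trp53 (-0.14, SE 0.16, adjusted p = 0.82). Zmat3 stood at 0.50 (SE 0.32, adjusted p = 0.54).

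Phlda3 stood at 0.292 UMIs per 10000 with Cdkn1a and 0.0640 without in anti-PD-1, and at 0.53 and 0.031 in the combination. Its log2 difference of 2.21 is one that the filter favours. Ccng1 stood at 0.933 and 0.512, and at 1.73 and 0.61, a difference of 1.12 (SE 0.17, adjusted p = 1.5e-08). Trp53inp1 differed by 0.88 (SE 0.20, adjusted p = 0.0012), with 0.34 in anti-PD-1 and 1.42 in the combination. Mdm2 differed by 0.60 (SE 0.19, adjusted p = 0.045), with 0.35 and 0.85. These p-values rest mostly on the spread pooled over genes, not on how alike the 2 libraries were. In both libraries Ccng1, Trp53inp1 and Mdm2 were higher in the cells with Cdkn1a, as was Phlda3. Without the richest combination cell, Phlda3 differed by 1.41, Ccng1 by 0.79 (adjusted p = 0.0010) and Trp53inp1 by 0.72 (0.028), and Mdm2 by 0.24 (0.73). The richest anti-PD-1 cell lay outside the gates and was never in this test. With profiles of at least 10 cells, which takes in all 4 libraries, no member passed: Ccng1 differed by 1.23 (adjusted p = 0.073), Phlda3 by 1.77 (0.26) and Mdm2 by 0.67 (0.27).

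In vehicle, with 16 Cdkn1a cells, Phlda3 stood 3.10 higher on the log2 scale (95% interval 2.14 to 4.11) and 2.95 (1.93 to 3.99) without its richest cell. In ATT-I, with 10 such cells, it rested on 1 UMI. Trp53inp1 went the other way in vehicle, at -0.57 (-1.39 to 0.16). Depth was similar on both sides in anti-PD-1 (median 7765 and 7325 UMIs) and in the combination (24736 and 24350) but not in vehicle (24230 and 13595). In anti-PD-1, 40.5% of the Cdkn1a cells and 32.9% of the others had an Mki67 UMI, and 62.7% against 83.9% were CD8-gated. Within CD8-gated cells of that library, Phlda3 was 2.42 higher among cells with Mki67 (2.07 to 2.76) and 2.0 among cells without (1.31 to 2.63), and Ccng1 was 0.97 (0.77 to 1.16) and 0.67 (0.34 to 0.99) higher. The pairing of Phlda3 and Ccng1 with Cdkn1a was thus measured inside each Mki67 class of 1 gate. For Trp53inp1 and Mdm2 no such values are given here.

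Among other p53 targets, the death genes Bbc3 (1.36), encoding Puma, and Pmaip1 (0.95), encoding Noxa, rose with Cdkn1a, 2 of 9 past the filter. Bbc3 lay below the filter in the Mki67, CD8 and Foxp3 comparisons, so its value here may be one that the filter favours. Listed genes were not checked for passing only through the cells with Cdkn1a. The combination cell richest in the members, on the Cdkn1a side, held 8 Bbc3 UMIs. Ddit4 (0.82), an inhibitor of mTOR, also rose, 1 of 5 metabolism targets. In the lists of p53 and its regulators 2 of 12 rose (Cdkn2a and Ppm1d), of arrest targets 1 of 6 (Plk3), of repair targets 1 of 5 (Pcna) and of ATF4 genes 1 of 6 (Cebpb, 0.80), and none fell. Of 9 early receptor genes 3 rose (Nr4a1 at 0.85, Irf4 and Tnfrsf9), and of 12 dissociation genes 3 rose and Hspa1a fell (-0.43). Their part in the member results was not tested. Outside the lists the cytokine genes Csf2 (2.54) and Lta (1.92) and the interferon-induced Ifitm1 (2.29) rose the most, and Xcl1 (-2.63), Klra7 (-2.23) and Tcf7 (-1.55) fell the most.

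Reading every member against every other in the anti-PD-1 library, the only one with over 100 cells on each side for all 7, gave an uneven picture. These ratios describe 1 library and carry counting intervals only, and the sides were not matched for depth, gate or Mki67. With Cdkn1a as the split, Phlda3 had a log2 ratio of 2.19 (1.91 to 2.46) and ranked 2 among 7381 genes. Ccng1 followed at 0.87 (0.72 to 1.01), and Bax, Trp53inp1 and Mdm2 stood at 0.42, 0.40 and 0.39. Of the 6 members 2 were at least 1.5-fold higher, against 4.32% of genes. With Phlda3 as the split (133 cells), Cdkn1a stood at 2.11 (1.88 to 2.33), Zmat3 at 1.68 (1.06 to 2.25), Ccng1 at 1.21 (0.97 to 1.43) and Bax at 0.91 (0.79 to 1.03), 4 of 6 members against 5.11% of genes. The cells with Phlda3 held a median of 8835 UMIs against 7322, and 57.1% against 33.0% had an Mki67 UMI.

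The other splits differed among themselves. With Ccng1 (997 cells), Phlda3 stood at 1.41 and Cdkn1a at 0.95, 2 of 6 members against 0.352% of genes. Cdkn1a, Phlda3 and Ccng1 were thus each higher in the cells in which another of the 3 was detected. With Bax (3760 cells), Phlda3 stood at 0.89, 1 of 6 against 0.0542%, and ranked 1. With Mdm2 (753 cells), Cdkn1a stood at 0.61, 1 of 6 against 0.108%. With Zmat3 (140 cells), Trp53inp1 stood at 0.85 and Cdkn1a at 0.75, 2 of 6 against 4.47%. Of the cells with Zmat3 21.4% had an Mki67 UMI, against 33.4% of those without. With Trp53inp1 (520 cells), none of 6 members reached 1.5-fold, against 2.28% of genes. Detection of Trp53 (1929 cells) went with none of 7 members at 1.5-fold, against 0.0135% of genes, and Cdkn1a stood at -0.30 (-0.45 to -0.16) and Zmat3 at -0.36 (-0.70 to -0.03).

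**Figure D4:**
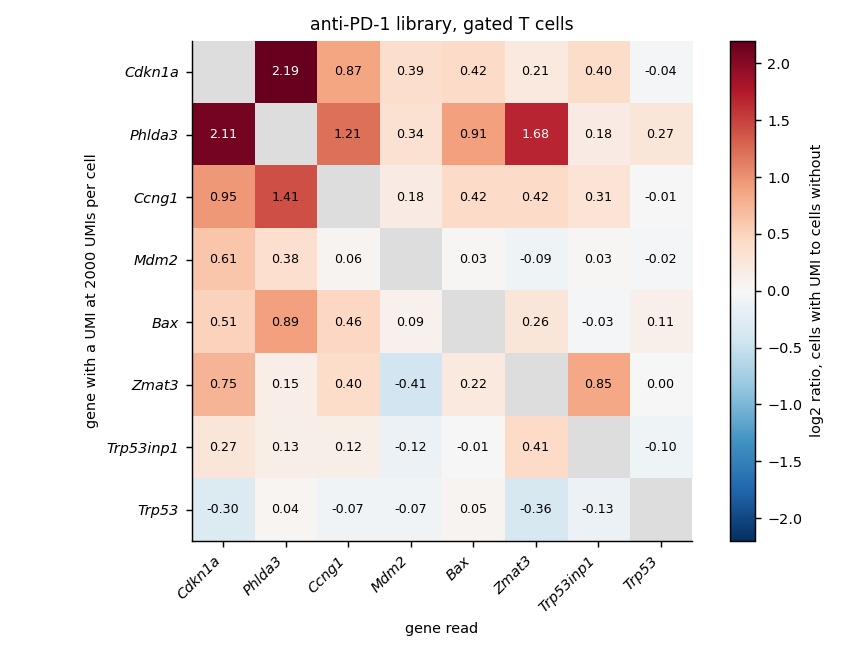
Log2 ratio of the level of each gene (columns) between gated T cells of the anti-PD-1 library with and without a UMI of the gene in the row, the row gene being read at 2000 UMIs per cell. The square of Cdkn1a, Phlda3 and Ccng1 holds ratios of 0.87 to 2.19, and the Trp53 row runs from -0.36 to 0.05.

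Between arms there was 1 library each and no test. Genes were called apart at 1.5-fold or more, and 7 members passed the filter of 0.1 UMIs per 10000. Phlda3 and Zmat3 passed only through the vehicle library (a mean of 0.0769 and 0.0892 over the other 3), so they had to lie higher in it. Counts against vehicle are therefore given over the other 5. Anti-PD-1 against vehicle had 4 of these 5 lower and none higher, against 31.2% of 7382 genes lower and 7.48% higher. The log2 ratios were -1.75 for Cdkn1a (95% interval -1.93 to -1.56), -1.34 for Ccng1 (-1.5 to -1.17), -0.65 for Mdm2 (-0.89 to -0.39) and -1.57 for Trp53inp1 (-1.81 to -1.33). Phlda3 stood at -1.17 (-1.63 to -0.68) and Zmat3 at -1.62 (-2.05 to -1.15), values that the filter favours. Bax stood at 0.07 (-0.05 to 0.19) and Trp53 at -0.17. The median gene stood at -0.25, and relative to it 3 of the 5 were lower, without Mdm2, against 19.2% of genes.

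ATT-I against vehicle had the same 4 of 5 members lower, against 27.2% of genes (4.51% were higher), with Ccng1 at -1.66 (-1.99 to -1.33), Cdkn1a at -1.62 (-1.99 to -1.25) and Bax at -0.45 (-0.64 to -0.26). Relative to the median gene of -0.23, 3 of the 5 were lower, against 15.6% of genes. The combination against vehicle had 2 of 5 lower, against 12.4% of genes (3.74% were higher): Ccng1 (-0.88) and Trp53inp1 (-0.63). Zmat3 stood at -1.06 and Phlda3 at -1.03. Cdkn1a stood at -0.41 (-0.64 to -0.18) there, and at 0.03 when the mean over cells was taken. In the Foxp3 gate the Cdkn1a ratio to vehicle had the other direction, at 0.75 for anti-PD-1 (0.18 to 1.38) and 1.01 for the combination (0.35 to 1.72). These comparisons share the vehicle library of 129 gated T cells.

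Against the single treatments the combination had 2 members apart, both higher. Against anti-PD-1 these were Cdkn1a at 1.34 (1.19 to 1.49) and Trp53inp1 at 0.95 (0.74 to 1.15), 2 of 7 where 23.0% of genes were higher and 10.5% lower, and Bax stood at -0.55 (-0.66 to -0.45). Against ATT-I they were Cdkn1a at 1.21 (0.87 to 1.57) and Ccng1 at 0.78 (0.46 to 1.11), 2 of 7 where 19.8% of genes were higher and 8.56% lower. Both shares were near the background.

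**Figure D5:**
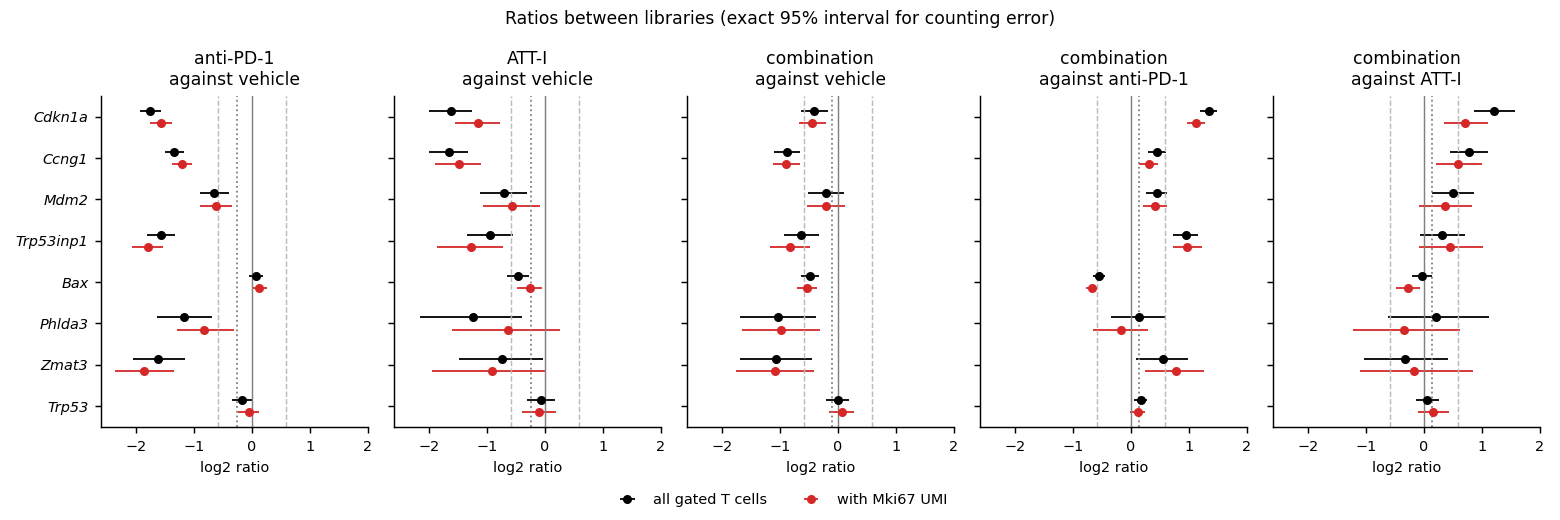
Log2 ratio between libraries (horizontal axes) of each p53 target with a level of at least 0.1 UMIs per 10000 and of Trp53, in all gated T cells and in those with an Mki67 UMI, with exact 95% intervals for counting error as bars. Dashed lines mark 1.5-fold and the dotted line the median gene. In all gated T cells, Cdkn1a, Ccng1, Mdm2 and Trp53inp1 lie beyond the left dashed line in anti-PD-1 and ATT-I against vehicle. So do Phlda3 and Zmat3, which passed the filter only through vehicle. Among cells with an Mki67 UMI, Mdm2 does not lie beyond it in ATT-I against vehicle.

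The share of cells with an Mki67 UMI differed between arms, so the ratios were read again within each class. Gated T cells held a median of 15156 UMIs in vehicle, 7322 with anti-PD-1, 7077 with ATT-I and 24543 with both agents. Finding an Mki67 UMI depends on depth, and the part of depth in these shares was not tested. Among cells with an Mki67 UMI, anti-PD-1 against vehicle had 4 of the 5 members lower (29.3% of genes), ATT-I 3 (24.7%) and the combination 2 (12.6%), with Cdkn1a at -1.57 (-1.76 to -1.37), -1.15 (-1.56 to -0.77) and -0.44 (-0.67 to -0.21). Among cells without Mki67, anti-PD-1 had 2 of 5 lower (34.8% of genes) and 1 higher, Cdkn1a (15.6%). ATT-I had 3 lower (36.6%) and none higher (11.1%), and the combination 1 lower (23.6%) and none higher (18.1%). The share of members lower than in vehicle was thus close to the background with anti-PD-1 and with both agents. Cdkn1a stood at 0.156, 0.242, 0.119 and 0.168 UMIs per 10000 in them, and the ratio of anti-PD-1 to vehicle was 0.63 (-0.59 to 2.26). With equal weight for each gate and Mki67 class of at least 20 cells in both libraries, Cdkn1a differed by -0.44 between anti-PD-1 and vehicle, over the 4 classes of vehicle. Between the combination and anti-PD-1 it differed by -0.01, over the 2 classes that both held, CD8-gated with Mki67 and CD4 conventional without. The cells used and their weights changed together there.

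Other measures moved with the arms. In gated T cells, 2 transcripts known to overlap ribosomal RNA repeats, Gm42418 and AY036118, stood at 84.8 and 12.1 UMIs per 10000 in vehicle, 18.2 and 3.38 with anti-PD-1, 55.3 and 7.72 with ATT-I, and 57.8 and 9.54 with both agents. Mitochondrial genes took 3.97%, 2.26%, 3.94% and 3.57% of UMIs. The 4 red cell markers summed to 0.0664, 0.727, 30.1 and 0.0258 (Hbb-bt at 0 in the combination), the 4 NK cell markers to 1.25, 3.39, 1.06 and 0.224 (Ncr1 at 0 in the combination), and the 5 measured tumour epithelial markers to 0.116, 0.124, 1.69 and 0.0576 (Krt8 at 0 in vehicle, Krt19 and Cldn7 at 0 in the combination). Vehicle and anti-PD-1 thus differed in the members, in these RNA classes and in depth at once, and the part of the latter in the member ratios was not tested. As each arm is 1 library, treatment and library cannot be told apart.

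The members were also ranked for likeness over the 15 library, gate and Mki67 profiles of at least 20 cells, as a description of profiles that share libraries and depth. Ccng1 and Phlda3 were alike (r = 0.88), as were Ccng1 and Mdm2 (0.84) and Cdkn1a and Ccng1 (0.73). Trp53inp1 and Zmat3 formed another pair (0.68), and Trp53inp1 ran against Trp53 (-0.58). Over the genes with a mean of at least 0.5 UMIs per 10000, the nearest to Cdkn1a were Ppp1cc (0.84) and Psip1, to Mdm2 Tmf1 (0.95), Ccdc82 and Zmat2, to Bax Lage3 (0.88), Hnrnpf and Ndufb8, to Phlda3 Dars (0.92), Luc7l3 and Cep192, and to Ccng1 Luc7l3 (0.90), Dars and Brd7. The nearest to Trp53inp1 were Slfn8 (0.91), Peli1 and Zc3hav1, to Sesn2 Lpxn (0.73), Gps2 and Gtpbp2, and to Zmat3 AY036118 (0.91), Krit1 and Gm42418 (0.88). The Zmat3 profile therefore followed the 2 transcripts above that differ between the libraries.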

How the data were processed

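Values were deposited by the authors as 1 table of 13213 cells on a natural log scale. Cell Ranger, Seurat and the mm10 build were used, without stated versions, per the submitters' processing notes. The deposited values equal the natural log of 1 plus UMIs per 10000, minus a number fixed for each library (0.247 vehicle, 0.249 anti-PD-1, 0.153 ATT-I, 0.225 combination) with values under 0 set to 0. Inverting this gave UMIs, 100% within 0.02 of a whole number. The subtraction put 1-UMI genes at 0 in 21 vehicle cells, 0 ATT-I cells, 37 anti-PD-1 cells and 37 combination cells, which were kept. Barcodes shared by 2 libraries numbered 1. No doublet caller was run and no cell was removed. Tests used limma 3.58.1 (R 4.3.3) on log2 profile levels, and counts used Python 3.11.15 (pandas 2.3.3, scipy 1.17.1, numpy 2.4.6, matplotlib 3.10.9). The Mki67 fit alone was checked on simulated data, with the same change in every library. The other fits, the Cdkn1a split among them, were not checked in this way. The genes that define a split were left out of its counts. The library was the block because each library holds both sides of a comparison. P-values rest on the spread between libraries that also differ in treatment, and in part on the spread pooled over genes. In the Cdkn1a split, with 2 libraries, they rest mostly on the spread pooled over genes. Thinning left out 53 cells of under 2000 UMIs. The members and lists were chosen with earlier results of these data known. Named genes were the 8 members, Trp53, up to 5 listed genes per direction and up to 3 others past the threshold with the largest change. Other genes that list counts name were chosen after their values were seen. Alternatives covered the block, pseudocount, filter, gates, depth and single libraries or cells. One of the genes most like a member is not reported here.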

Additional observations from a re-analysis of the deposited data

Results flagged for a closer look

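Trp53 in Foxp3-gated against CD4 conventional cells had opposite directions in 2 libraries whose counting intervals both excluded 0. The log2 ratio was 0.84 in the combination and -0.20 in anti-PD-1, a gap of 1.05. The difference was not tested over libraries, and 1.10 against 0.615 UMIs per 10000 in the combination rests on 29 and 39 cells.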

How the results depend on the processing

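Of 327 differences of the members and Trp53 recomputed in the tests, 264 kept direction and side of the threshold, 45 lost and 2 gained the call, and 16 changed sign. The 264 take in differences that were never called, whereas only called ones could be among the 45. Of 320 ratios of the members and Trp53 between arms 239 moved little, 75 moved and 6 changed sign. Depth limits Phlda3, Zmat3 and Sesn2 most. Every library holds both sides of each comparison, which pairs them. With no replicate block, members called went from 3 to 1 for Mki67, from 1 to 0 for CD8 against CD4 and from 4 to 0 for the Cdkn1a split, and all genes called from 1313 to 460, 1614 to 396, 275 to 0, and 639 to 148 for Foxp3 against CD4. The 4 take in Phlda3, which passed the filter only through the cells with Cdkn1a.

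Members called for Mki67 numbered 1 at 8000 to 32000 UMIs (507 genes), 0 thinned (217) and 1 in the CD8 gate alone, 2 libraries (521), with 665 genes without the filter. For CD8 against CD4 they numbered 0 without the filter (808 genes), by the mean over cells and with gates from 2 UMIs, with 611 genes at 8000 to 32000 UMIs. For Foxp3 against CD4, 46 genes passed without the filter, 289 with exclusive gates, 325 with gates from 2 UMIs and 323 without cells that lost 1-UMI genes. For the Cdkn1a split, members called numbered 2 at pseudocount 0.5 (118 genes), 0 without the filter (16), 2 by the mean over cells (70), 0 from thinned levels (57) and 0 with profiles of at least 10 cells (0 genes). Phlda3 was not left out of these member counts. Leaving out single libraries gave 2 to 3 members and 830 (without ATT-I) to 1123 genes for Mki67, 0 to 2 members and 932 (without the combination; 1064 without vehicle) to 1499 genes for CD8 against CD4, and 344 (without vehicle; 387 without the combination) to 594 genes for Foxp3 against CD4. The cause was not tested.

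In the combination against vehicle 4 of 7 members were lower at first (12.4% of genes). The count was 2 of 7 both thinned (25.8%) and without the cells that lost 1-UMI genes (9.74%). The 7 take in Phlda3 and Zmat3, which had to lie higher in vehicle. Over the other 5 members the first count was 2. The combination against anti-PD-1 had 2 of 7 members higher at first (23.0% of genes) and 4 higher thinned (28.9%). Without the cells that lost 1-UMI genes it had 6 higher (29.3%), and at 8000 to 32000 UMIs 3 higher (30.9%) and 1 lower (6.5%). Against ATT-I it had 2 higher at first (19.8%), and thinned 5 higher (34.5%) and 1 lower (16.1%). With equal class weight 1 was higher there (24.97%), and without the cells that lost 1-UMI genes 5 were higher (26.7%).

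Signs changed for Zmat3 in the Mki67 comparison thinned (0.71) and for Ccng1 in CD8 against CD4 with gates from 2 UMIs (-0.019). Without single libraries Ccng1 there ran from -0.10 (without the combination; -0.02 without vehicle) to 0.26. In Foxp3 against CD4, Cdkn1a was 0.079 by the mean over cells, 0.0087 with exclusive gates, 0.17 with gates from 2 UMIs and 0.16 without the cells that lost 1-UMI genes, and Trp53 was -0.12 by the mean over cells, -0.12 with exclusive gates and -0.044 without those cells. Without single libraries the values there ran from -0.52 to 0.18 (without vehicle) for Cdkn1a, from -0.048 (without anti-PD-1) to 0.36 for Trp53inp1, from -0.18 to 0.0085 (without ATT-I) for Zmat3 and from -0.15 (without the combination) to 0.27 for Trp53. Trp53 in the Cdkn1a split was 0.31 from thinned levels. Thinned ratios to vehicle were 0.33 (anti-PD-1), 0.59 (ATT-I) and 0.22 (combination) for Phlda3 and 0.0080 (ATT-I) for Zmat3. With equal class weight, over the 2 classes both libraries hold, Trp53inp1 was 0.11 in the combination against vehicle and Cdkn1a -0.0057 against anti-PD-1.

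The alternatives on depth window, lost 1-UMI genes, 10-cell profiles and richest cells were chosen after seeing the data. The Foxp3 comparison at 8000 to 32000 UMIs could not be fitted, nor could the Cdkn1a split with exclusive gates, within the window, without the cells that lost 1-UMI genes, in cells without Mki67 or without a library.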
